A study of Mus musculus with 6 samples.

Results

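Osteoclasts, the multinucleated cells that dissolve bone and dental hard tissue, were read through 10 genes out of the 23594 in the deposited table. The genes were chosen by name, with earlier results of these data known, and they fall into 5 genes of the signals and receptors that drive osteoclast formation (Tnfsf11, Tnfrsf11a, Tnfrsf11b, Csf1 and Csf1r) and 5 genes of products that osteoclasts make (Acp5, Ctsk, Mmp9, Oscar and Dcstamp). All 10 were present in the table and all 10 passed the filter on low counts.

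RNA was sequenced from laser-captured apical tissue of the furcation, the place where the roots of a molar part, in mandibular first molars of C57BL/6 mice aged 4.5 days. There were 3 control libraries, whose genotype is given as wild type, and 3 Lhx6-/- libraries, each prepared from the pooled tissue of several molars of littermate mice, and both sexes were collected. In the Lhx6-/- mice both copies of Lhx6, a transcription factor gene of the dental mesenchyme, were inactivated by an inserted CreER cassette (the Lhx6-CreER line). The libraries held 60132323 to 76157433 estimated counts each. Nothing in the labels says that the libraries are independent litters, so p-values measure the spread between these pools.

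RANKL, the product of Tnfsf11, is a ligand made by osteoblasts, osteocytes and other mesenchymal cells, including those of the dental follicle, and it binds its receptor RANK, the product of Tnfrsf11a, on cells of the monocyte lineage. OPG, the product of Tnfrsf11b, is a secreted decoy receptor that takes up RANKL, while CSF1 acts through its receptor CSF1R to keep osteoclast precursors alive and dividing. The bone around a growing tooth must be resorbed to make room for the crown and the root, and osteoclasts fuse, acidify a sealed space on the mineral and release proteases into it.

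None of the 10 genes passed the test between genotypes, and in each of them the control and Lhx6-/- libraries overlapped. The 3 abundant osteoclast products, Acp5, Ctsk and Mmp9, stood at a mean of 1248, 1223 and 1280 counts per 1000000 counts of the library (CPM, scaled by the TMM method) in control tissue, and at 1145, 1136 and 1184 CPM in Lhx6-/- tissue. At an adjusted p under 0.05 (quasi-likelihood test of edgeR, Benjamini-Hochberg adjusted over all tested genes), 0 of 10 were called, where 0.403% of all 20114 tested genes were called. The thresholds of the study's own rule, an unadjusted p under 0.05 together with a change of 1.5-fold or more, were applied to the edgeR values. They likewise called 0 of 10, beside 3.28% of all tested genes. These are not the study's own calls, which came from another analysis. An unadjusted p under 0.05 was reached by 0 of 10, beside 9.81% of all tested genes, and groups without overlap were found in 0 of 10, beside 15.5%. DESeq2 and limma-trend also called 0 of 10.

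**Figure D1:**
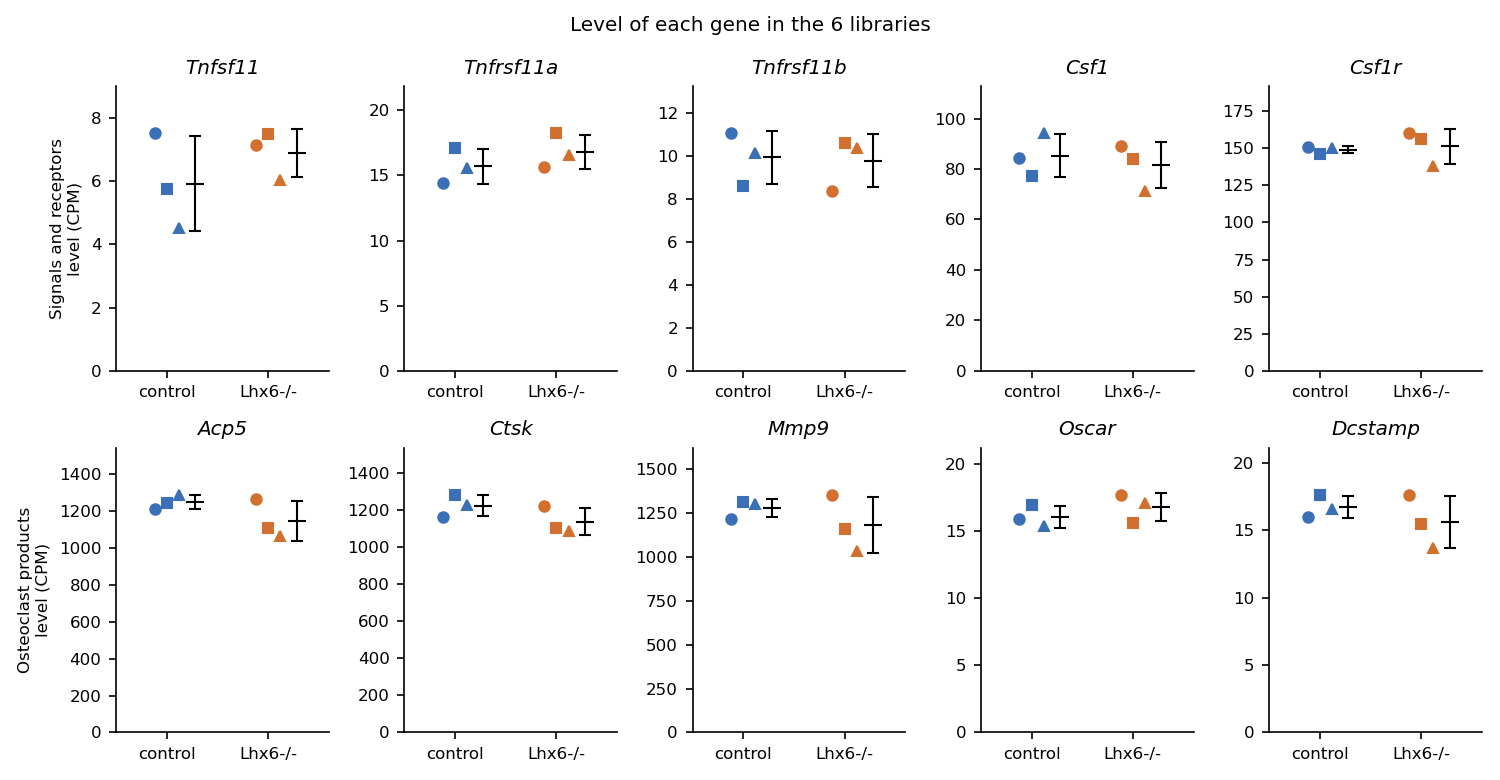
Level of each of the 10 genes in CPM on the vertical axis, which starts at 0, in control (blue) and Lhx6-/- (orange) libraries. The circle, the square and the triangle are replicates 1, 2 and 3, and the black bar is the mean with its SD (n = 3). The points of the 2 genotypes overlap in every panel.

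The labels were read against Lhx6 first. The controls, replicates 1 to 3, gave 27.8, 18.2 and 21.9 CPM of it and the Lhx6-/- libraries 12.8, 9.82 and 10.5 CPM, with no overlap and a log2 fold change of -1.04 (SE 0.16, adjusted p = 0.021, edgeR). Markers of several tissues of the molar were high in the dissected material. Col1a1, the collagen gene of odontoblasts and osteoblasts, ran from 64840 to 85300 CPM, the enamel gene Amelx from 83290 to 109600 CPM, and the follicle gene Postn from 887 to 1006 CPM. The label names apical tissue and does not mention enamel-forming cells. The log2 fold changes of Col1a1, Amelx and Postn were 0.09, -0.12 and -0.004. Those of the other most abundant markers were -0.18 for Bglap of osteoblasts and 0.33 for Dspp of odontoblasts. For Ambn of ameloblasts the value was -0.07 and for Dcn of the follicle -0.002. Of these, Bglap (adjusted p = 0.572, edgeR) and Dspp (adjusted p = 0.199, edgeR) did not overlap between genotypes. In their lists, 4 of 12 osteoblast genes (33.3%) and 3 of 7 odontoblast genes (42.9%) did not overlap, beside 15.5% of all tested genes. Keratin 5 and keratin 14 genes of the dental epithelium were lower in all 3 Lhx6-/- libraries, and the 10 epithelial markers summed to 1249, 1934 and 1365 CPM in control and to 882, 961 and 1012 CPM in Lhx6-/- tissue (8 of 10 at an unadjusted p under 0.05, beside 9.81% of all tested genes, 5 of 10 by the rule of fold and p, beside 3.28%, and 0 of 10 at an adjusted p under 0.05, beside 0.403%). The pools also differed in sex, since Xist, the RNA of the inactive X chromosome, stood at 792, 411 and 628 CPM in control and at 290, 0.23 and 0.053 CPM in Lhx6-/- replicates 1, 2 and 3. The Y-linked genes Eif2s3y and Ddx3y had log2 fold changes of 1.25 and 1.33 (adjusted p = 0.676 and 0.673, edgeR). Of the 4 Y-linked genes, 2 did not overlap between genotypes (50%, beside 15.5% of all tested genes), both higher in Lhx6-/- libraries. The 4 summed to 17.37, 57.95 and 14.58 CPM in control and to 55.08, 92.14 and 88.48 CPM in Lhx6-/- libraries. The Y-linked covariate used below therefore ran in large part with genotype. The part of the epithelial share or the sex of the pools in the values below was not tested beyond the covariate fits named with them. The epithelial covariate was the log2 of the summed CPM of the ameloblast and dental epithelium markers together. The ameloblast markers summed to 115000 to 146300 CPM, so this covariate mostly followed them and hardly the 10 epithelial markers above.

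The sequence before the start of transcription is shown for 3 genes, each with a single start in the table, because they stand for an abundant product, a product that followed another course across the libraries, and the ligand. RefSeq promoter sequences of build GRCm38.p6 were matched by symbol for 6 of the 10 genes, and the 250 bases before each start were searched on both strands for 4 short motifs: TGANTCA of AP-1, to which FOS belongs, GAGGAA of PU.1, the product of Spi1, TCACATG of MITF, and TATAAA, the TATA box. The Ctsk window lies at chr3:95498960-95499209 on the plus strand, the Oscar window at chr7:3616158-3616407 on the minus strand and the Tnfsf11 window at chr14:78308044-78308293 on the minus strand. Each is written 5′ to 3′ along the gene, and capitals mark the motifs found.
Ctsk: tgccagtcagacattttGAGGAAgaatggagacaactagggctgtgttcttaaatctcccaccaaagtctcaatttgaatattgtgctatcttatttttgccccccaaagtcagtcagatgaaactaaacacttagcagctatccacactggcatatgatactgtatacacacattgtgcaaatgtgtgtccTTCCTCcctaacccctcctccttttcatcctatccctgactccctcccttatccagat
Oscar: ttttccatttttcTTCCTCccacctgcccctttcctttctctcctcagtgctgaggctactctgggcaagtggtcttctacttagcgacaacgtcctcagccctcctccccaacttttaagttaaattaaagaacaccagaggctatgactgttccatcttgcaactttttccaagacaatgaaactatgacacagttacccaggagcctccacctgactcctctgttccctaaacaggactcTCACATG
Tnfsf11: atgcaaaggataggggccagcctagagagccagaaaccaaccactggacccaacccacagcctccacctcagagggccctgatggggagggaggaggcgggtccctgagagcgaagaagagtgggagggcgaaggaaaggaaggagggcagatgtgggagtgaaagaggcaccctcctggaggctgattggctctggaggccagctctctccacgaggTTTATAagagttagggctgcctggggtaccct

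Ctsk held the PU.1 letters at 2 places, ending 228 and 53 bases before the start, and Oscar held them at 1 place, ending 232 bases before it. The same letters were present in 23.3% of all 32851 promoter windows. The MITF letters ended 1 base before the start of Oscar and 85 bases before the third of 3 starts of Acp5, and 3.5% of all windows held them. Tnfsf11 held the TATA box letters only on the strand opposite to the gene (TTTATA as printed), ending 27 bases before its start. On either strand, 12.4% of all windows held them somewhere in the 250 bases. The AP-1 letters, present in 6.75% of all windows, were found in none of the windows of Tnfsf11, Tnfrsf11a, Csf1, Acp5, Ctsk and Oscar. These matches describe letters only. Mmp9, Tnfrsf11b, Dcstamp and Csf1r were not searched.

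Levels of different genes were compared per length, as CPM per 1000 bases of annotated exon (RPKM). Ranks were taken on the mean over all 6 libraries, among the 23180 genes with an annotated exon length. Ctsk, the gene of cathepsin K, which cleaves collagen in the resorption space, had the highest level at a control mean of 809 RPKM (rank 41). Acp5, the gene of tartrate-resistant acid phosphatase, followed at 615 RPKM (rank 49) and Mmp9, the gene of a gelatinase that osteoclasts secrete, at 362 RPKM (rank 86). Csf1r stood at 25.8 RPKM and Csf1 at 16.2 RPKM, above Oscar at 8.70 RPKM and Dcstamp at 6.28 RPKM. Tnfrsf11b, Tnfsf11 and Tnfrsf11a closed the order at 3.53, 2.65 and 2.62 RPKM.

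The order from Ctsk down to Tnfrsf11b was the same in all 6 libraries, and the ranges of neighbours did not overlap down to the step from Dcstamp to Tnfrsf11b. The last 3 genes could not be ranked: Tnfrsf11b exceeded Tnfsf11 in 5 of 6 libraries and Tnfsf11 exceeded Tnfrsf11a in 3 of 6, with overlapping ranges at both steps. The reads of Acp5 and Csf1r may include those of a gene on the opposite strand whose exons overlap theirs (6530413G14Rik and Hmgxb3), because the sources used here do not say whether the counting used strand.

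**Figure D2:**
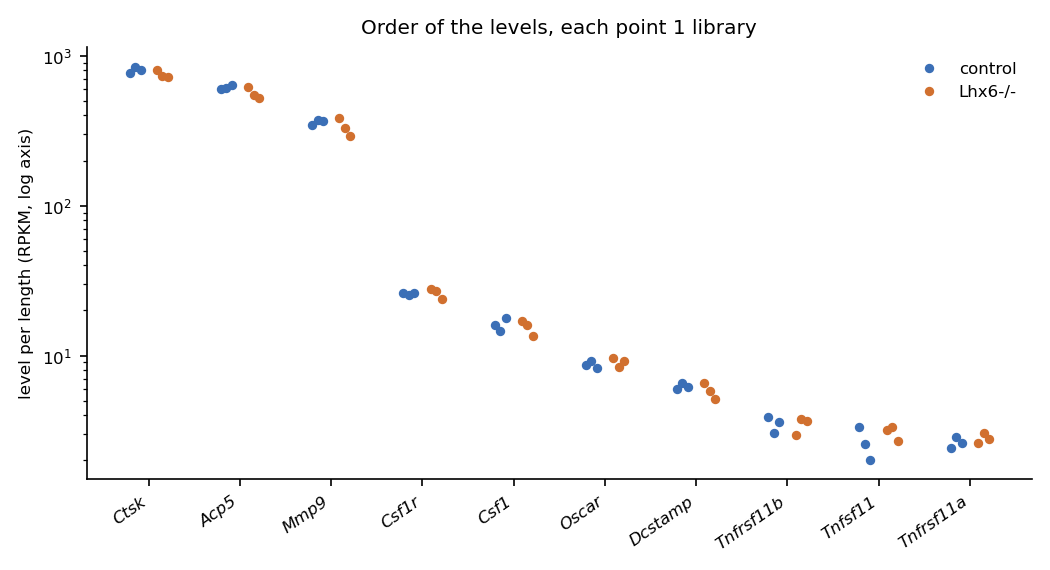
Level per length (RPKM, logarithmic axis) of the 10 genes in order of their control mean, each point being 1 library, control in blue and Lhx6-/- in orange. Ctsk, Acp5 and Mmp9 stand apart at the top, and Tnfrsf11b, Tnfsf11 and Tnfrsf11a overlap at the bottom.

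Among the signals, the RANKL gene Tnfsf11 varied most between libraries. Its position in mm10 is 78277445 to 78308043 of chromosome 14 (minus strand), and the 3 controls read 7.503, 5.75 and 4.52 CPM, where the Lhx6-/- libraries, in the same order of replicates, read 7.15, 7.49 and 6.02 CPM. The highest control library was thus level with the highest Lhx6-/- library, and control replicates 2 and 3 were the lowest of the 6. The means were 5.92 ± 1.502 CPM (SD, n = 3) and 6.89 ± 0.77 CPM (SD, n = 3), a log2 fold change of 0.22 with a 95% interval of -0.20 to 0.64 (SE 0.19, adjusted p = 0.801, edgeR). The interval runs from 0.871 to 1.55 times the control level and so includes both no change and a rise of about 1.5-fold. The lowest library held 267 estimated counts of Tnfsf11. The counting error there, taken as that of a Poisson count, was 6.12% of the level. This error covers the counting of reads only and leaves out the steps before sequencing. The coefficient of variation of Tnfsf11 over the 6 libraries was 18.6%. The unadjusted p was 0.279 over all libraries and 0.0433 without control replicate 1, when the log2 fold change became 0.43 (adjusted p = 0.392, and 0.392 to 0.998 over all alternatives, edgeR, DESeq2 and limma).

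The gene of the decoy receptor, Tnfrsf11b, occupies bases 54250619 to 54278484 of chromosome 15 (minus strand). It was measured at 11.04, 8.62 and 10.1 CPM in control and at 8.35, 10.6 and 10.3 CPM in Lhx6-/- libraries. The lowest library of each genotype lay well below its other 2, and the means of 9.93 ± 1.22 and 9.77 ± 1.24 CPM (SD, n = 3 each) differed by less than either SD. The log2 fold change was -0.02 with a 95% interval of -0.33 to 0.29 (adjusted p = 0.98, edgeR).

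The ratio of RANKL to OPG transcripts describes the balance between the ligand and its decoy. As a ratio of CPM values it was 0.68, 0.667 and 0.445 in control replicates 1, 2 and 3 and 0.857, 0.705 and 0.582 in Lhx6-/- replicates 1, 2 and 3. The mean ratio was 0.597 ± 0.132 (SD, n = 3) in control and 0.715 ± 0.138 (SD, n = 3) in Lhx6-/- libraries, so the means differed by less than 1 SD and the ranges overlapped. On the log2 scale the difference was 0.27, beside an SD of 0.34 in control and 0.28 in Lhx6-/- libraries, and leaving out control replicate 3 made it 0.07, leaving out Lhx6-/- replicate 3 made it 0.41. No test was made of this ratio.

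The CSF1 gene, on chromosome 3 from 107741048 to 107760469 on the minus strand, was far more abundant than that of RANKL. Csf1 stood at 84.6, 77.4 and 94.1 CPM in control and at 89.3, 84.2 and 71.3 CPM in Lhx6-/- libraries, the highest value being a control and the lowest an Lhx6-/- library. The log2 fold change was -0.07 with a 95% interval of -0.27 to 0.14 (adjusted p = 0.899, edgeR).

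Both receptors on the precursor cells were also close between genotypes. Tnfrsf11a, the RANK gene on chromosome 1 from 105780718 to 105847981, had levels of 14.4, 17.1 and 15.5 CPM in control and 15.6, 18.2 and 16.6 CPM in Lhx6-/- libraries, with a log2 fold change of 0.10 (95% interval -0.13 to 0.33, adjusted p = 0.846, edgeR). Csf1r, on chromosome 18 from 61100598 to 61132149, had levels of 151, 146 and 150 CPM in control and 160, 156 and 138 CPM in Lhx6-/- libraries, with a log2 fold change of 0.02 (95% interval -0.14 to 0.18, adjusted p = 0.964, edgeR). The control values of Csf1r spread over 1.73% of their mean and the Lhx6-/- values over 7.77% (coefficient of variation, n = 3 each). For the 5 signals and receptors together, the intervals allowed at most a 1.55-fold rise and a 1.26-fold fall in any gene.

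The 3 abundant osteoclast products held 72449 or more estimated counts in every library. Acp5, on chromosome 9 from 22126727 to 22135711 on the minus strand, read 1211, 1246 and 1287 CPM in control and 1266, 1109 and 1062 CPM in Lhx6-/- libraries. Lhx6-/- replicate 1 lay among the controls and replicates 2 and 3 below them. The log2 fold change was -0.12 with a 95% interval of -0.31 to 0.06 (SE 0.09, unadjusted p = 0.174, adjusted p = 0.719, edgeR).

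The same split of the Lhx6-/- libraries was seen in the protease genes. Ctsk, on chromosome 3 from 95499256 to 95509362, read 1164, 1280 and 1225 CPM in control and 1219, 1104 and 1084 CPM in Lhx6-/- libraries, a log2 fold change of -0.11 (95% interval -0.28 to 0.07, adjusted p = 0.751, edgeR). Mmp9, on chromosome 2 from 164940780 to 164955850, read 1219, 1316 and 1304 CPM in control and 1354, 1161 and 1037 CPM in Lhx6-/- libraries, a log2 fold change of -0.11 (95% interval -0.33 to 0.10, adjusted p = 0.801, edgeR). The highest and the lowest of the 6 values of Mmp9 were therefore both Lhx6-/- libraries.

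The less abundant products take part in precursor fusion and costimulation. Dcstamp, the gene of a membrane protein needed for precursors to fuse, on chromosome 15 from 39745930 to 39760938, read 16.0, 17.6 and 16.6 CPM in control and 17.6, 15.5 and 13.7 CPM in Lhx6-/- libraries, a log2 fold change of -0.10 (95% interval -0.34 to 0.14, adjusted p = 0.852, edgeR). Oscar, the gene of a receptor that costimulates osteoclast differentiation, on chromosome 7 from 3609813 to 3616157, read 15.9, 17.0 and 15.4 CPM in control and 17.7, 15.6 and 17.1 CPM in Lhx6-/- libraries, a log2 fold change of 0.06 (95% interval -0.15 to 0.28, adjusted p = 0.908, edgeR). For the 5 products, the intervals allowed at most a 1.21-fold rise and a 1.27-fold fall. In bulk tissue, fewer osteoclasts and less of a transcript per osteoclast cannot be told apart.

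**Figure D3:**
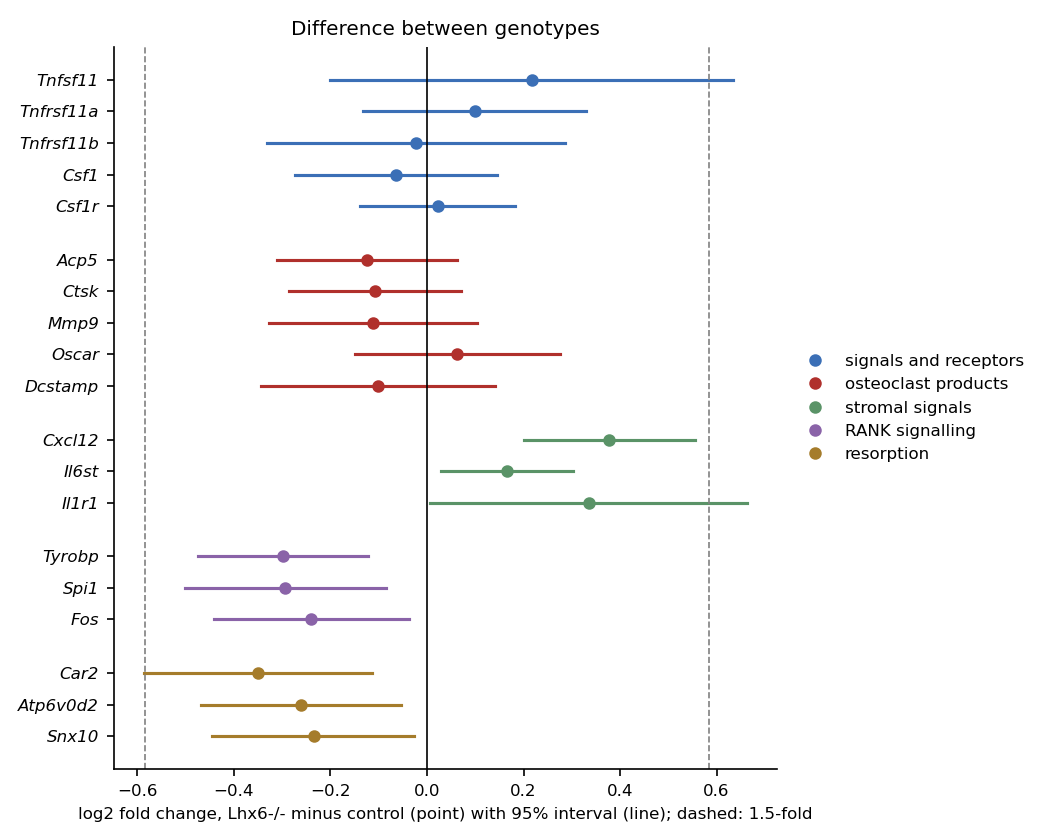
Log2 fold change (Lhx6-/- minus control, horizontal axis) with its 95% interval for the 10 genes and for the 3 genes with the smallest p in each of 3 pathway lists. All 10 intervals include 0, and that of Tnfsf11 is the only one of the 10 to pass the dashed line at 1.5-fold.

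In the libraries at hand, 4 of the products kept nearly fixed proportions to each other. Relative to the control mean, Acp5, Ctsk, Mmp9 and Dcstamp lay within 95.2% to 97% in control replicate 1, within 99.7% to 106% in Lhx6-/- replicate 1, within 88.8% to 92.5% in Lhx6-/- replicate 2 and within 81.1% to 88.6% in Lhx6-/- replicate 3. Over the 6 libraries, which share the pools and the scaling, the Pearson correlation of their log2 levels was 0.90 to 0.98 for each pair of these 4 genes. Oscar stood at 110%, 97.1% and 106% of its control mean in the Lhx6-/- libraries, and its correlation with the other 4 was -0.03 to 0.16. The counting error of Oscar was 3.32% at its lowest count, beside a spread of 5.70% over the 6 libraries (coefficient of variation), and Dcstamp had nearly the same counting error (3.20%) beside a spread of 9.12%.

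The ratios between the abundant products varied little. The ratio of Acp5 to Ctsk ran from 0.974 to 1.05 over the 6 libraries and that of Mmp9 to Ctsk from 0.957 to 1.11, as ratios of CPM. The summed level of the 5 products was 3626, 3878 and 3848 CPM in control and 3874, 3404 and 3214 CPM in Lhx6-/- libraries, whose mean was 92.4% of the control mean. The 5 signals and receptors summed to 268, 255 and 274 CPM in control and to 280, 277 and 242 CPM in Lhx6-/- libraries, whose mean was 100% of the control mean. No test was made of these sums, and the difference between products and signals was not tested.

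**Figure D4:**
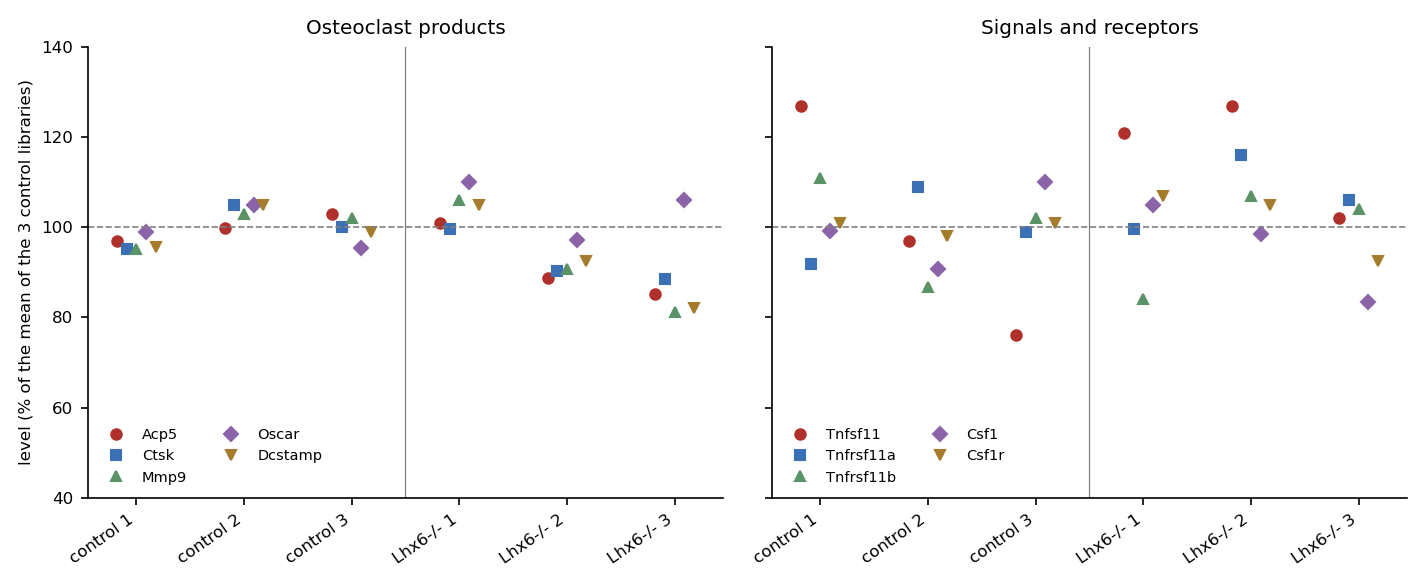
Level in each library as a percent of the mean of the 3 control libraries, for the osteoclast products (left) and the signals and receptors (right). Acp5, Ctsk, Mmp9 and Dcstamp move together and are lowest in Lhx6-/- replicates 2 and 3, and Oscar does not follow them.

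The size of these differences depended on which Lhx6-/- library was left out. Without replicate 1 the log2 fold change was -0.20 for Acp5 (unadjusted p = 0.0498, edgeR) and -0.22 for Mmp9 (unadjusted p = 0.0468, edgeR). Without replicate 3 it was -0.07 for Acp5 (unadjusted p = 0.451, edgeR) and -0.025 for Mmp9 (unadjusted p = 0.801, edgeR). A fit with a Y-linked covariate gave -0.05 for Acp5 and -0.07 for Mmp9, and one with an epithelial covariate gave -0.14 and -0.16. Over all alternatives the adjusted p of any of the 10 genes was 0.392 or more. Lhx6-/- replicates 2 and 3 were also the libraries with almost no Xist.

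Over the signals, Csf1 and Csf1r correlated at 0.78, and Csf1 at 0.41 to 0.72 with Acp5, Ctsk, Mmp9 and Dcstamp. Tnfsf11 correlated at -0.40 to -0.07 with these 4 products. Tnfrsf11b ran the other way to all 5 products, at -0.73 to -0.51. With 6 libraries these values describe the libraries at hand and nothing more.

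Among 15116 tested genes with a mean of at least 1 CPM, the 5 whose pattern over the 6 libraries was most like that of the summed products were Kdm1a, Usp15, Gm27029, Gm14176 and Adrm1, at a Pearson correlation of 0.979 to 0.997. The 5 most like Tnfrsf11b were Hs6st2, Diras2, Spryd3, Mrm1 and Fbxl2, at 0.984 to 0.991. These are the highest of 15116 or more correlations taken over 6 points, and they describe a likeness in these libraries only.

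The wider pathway was read from 3 lists. Of 30 genes for other secreted factors and receptors that act on osteoclast formation, 26 were tested. In either direction 0 were called by adjusted p (beside 0.403% of all tested genes) and 0 by fold and p (beside 3.28%). There were 3 at an unadjusted p under 0.05 (11.5%, beside 9.81% of all tested genes). The median log2 fold change was 0.09, beside -0.002 over all tested genes. The smallest p belonged to Cxcl12, the gene of a chemokine that attracts osteoclast precursors. It read 156, 157 and 163 CPM in control and 226, 184 and 208 CPM in Lhx6-/- libraries, all 3 above all controls. The log2 fold change was 0.38 (95% interval 0.20 to 0.56, adjusted p = 0.0984, edgeR). The adjusted p was 0.0461 with total-count scaling and 0.00143 with DESeq2, and above 0.05, at 0.0677 to 0.39, in every other alternative.

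The next genes of that list differed less. Il6st, the gene of the receptor subunit gp130, had a log2 fold change of 0.17 (adjusted p = 0.399, edgeR), with no overlap between 87.3 to 89.4 CPM in control and 96.5 to 102 CPM in Lhx6-/- libraries. In that list 5 of 26 genes did not overlap (19.2%, beside 15.5% of all tested genes). Il1r1, the gene of the interleukin 1 receptor, had a log2 fold change of 0.34 (adjusted p = 0.495, edgeR). Of the genes singled out after their values were seen, Il34, the gene of another ligand of CSF1R, was low, at 0.449 to 1.42 CPM over the 6 libraries. Pthlh, whose product raises RANKL in the dental follicle, read 6.78, 11.6 and 7.20 CPM in control and 12.6, 9.23 and 13.1 CPM in Lhx6-/- libraries (log2 fold change 0.45, 95% interval -0.04 to 0.93, adjusted p = 0.561, edgeR). Il6, Ifng and Ifnb1 were not analysed here.

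Of 34 genes of RANK signalling and osteoclast transcription factors, 33 were tested. In either direction 0 were called by adjusted p (beside 0.403% of all tested genes) and 0 by fold and p (beside 3.28%). There were 4 at an unadjusted p under 0.05 (12.1%, beside 9.81% of all tested genes), all lower in Lhx6-/- libraries. The median log2 fold change was -0.05. The 3 with the smallest p were Tyrobp, the gene of the adaptor DAP12 through which costimulatory receptors signal, Spi1, the gene of the myeloid factor PU.1, and Fos. Tyrobp read 43.1, 50.2 and 50.02 CPM in control and 40.3, 38.6 and 37.7 CPM in Lhx6-/- libraries, a log2 fold change of -0.30 (95% interval -0.47 to -0.12, adjusted p = 0.214, edgeR). Spi1 had a log2 fold change of -0.29 (adjusted p = 0.299, edgeR) and Fos of -0.24 (adjusted p = 0.407, edgeR), and neither overlapped between genotypes. In this list 4 of 33 genes did not overlap (12.1%, beside 15.5% of all tested genes). Nfatc1, the gene of the factor that drives the osteoclast programme under RANK, was named after its values were seen and read 77.5, 72.6 and 86.9 CPM in control and 77.1, 80.3 and 69.3 CPM in Lhx6-/- libraries (log2 fold change -0.06, adjusted p = 0.884, edgeR).

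Of 23 further genes of resorption, fusion and acid secretion, all 23 were tested. In either direction 0 were called by adjusted p (beside 0.403% of all tested genes) and 0 by fold and p (beside 3.28%). An unadjusted p under 0.05 was reached by 3 (13%, beside 9.81% of all tested genes). The list summed to 2050, 2083 and 2122 CPM in control and to 2100, 1987 and 1954 CPM in Lhx6-/- libraries, and these sums overlapped. The Lhx6-/- mean was 96.6% of the control mean. All 23 genes were read in the same 6 libraries, so they are not independent of each other. Their log2 fold changes were below 0 in 20 of 23 genes, beside 50.3% of all tested genes, with a median of -0.10. With the Y-linked level as a covariate it was 15 of 23 genes with a median of -0.23, and with the epithelial level 18 of 23 with a median of -0.10. Car2, the gene of the carbonic anhydrase that supplies protons, read 62.2, 56.3 and 52.1 CPM in control and 44.7, 37.9 and 51.2 CPM in Lhx6-/- libraries, a log2 fold change of -0.35 (95% interval -0.59 to -0.11, adjusted p = 0.277, edgeR). Atp6v0d2, the gene of a proton pump subunit, had a log2 fold change of -0.26 (adjusted p = 0.374, edgeR), and Snx10, the gene of a sorting nexin needed for resorption, of -0.24 (adjusted p = 0.447, edgeR). Other genes were named after their values were seen. For the proton pump, the log2 fold change was -0.07 for Tcirg1, -0.18 for Atp6v1g1, -0.14 for Atp6v1c1 and -0.12 for Atp6ap1. For Clcn7, the chloride channel gene, it was -0.09. The 3 genes of the list above 0 were Itgb3, the gene of the sealing zone integrin, at 0.04, Mmp14 at 0.05 and Calcr at 0.695. Calcr was low, at 0.594 to 2.23 CPM over the 6 libraries (95% interval -0.139 to 1.53, adjusted p = 0.618, edgeR).

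**Figure D5:**
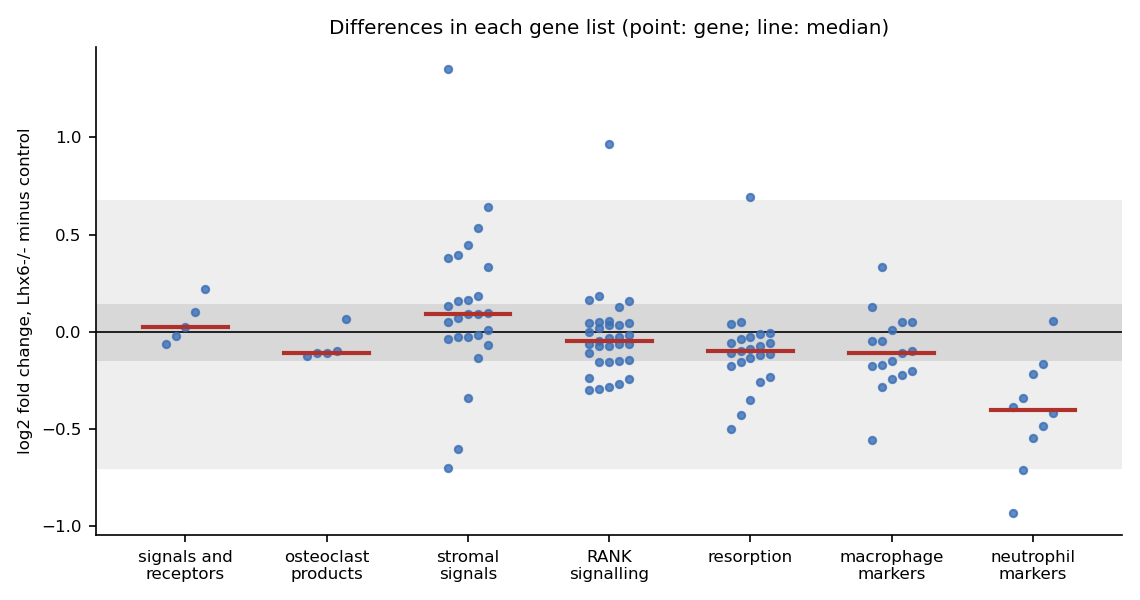
Log2 fold change (Lhx6-/- minus control, vertical axis) of every tested gene in 7 lists, each point a gene and the red line the median. The darker grey band is the interquartile range of all tested genes (-0.15 to 0.14) and the paler band runs from -0.70 to 0.67, leaving out 5% of all tested genes at each end.

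Other myeloid cells can make some of these transcripts. The 17 macrophage markers summed to 468, 452 and 472 CPM in control and to 475, 387 and 435 CPM in Lhx6-/- libraries, with 0 of 17 called by adjusted p (beside 0.403%), and their 2 most abundant genes, Laptm5 and Cd68, had log2 fold changes of -0.05 and -0.15. The log2 fold change was below 0 in 12 of the 17 and above 0 in 5. Between genotypes, 4 of 17 did not overlap (23.5%, beside 15.5%), 3 being lower and 1 higher in Lhx6-/- tissue. Only 2 of 17 had an unadjusted p under 0.05 (11.8%, beside 9.81% of all tested genes). These 2, named after their values were seen, were C1qb at -0.24 and Cd163 at -0.56 (adjusted p = 0.402 and 0.463, edgeR). The 10 neutrophil markers summed to 275, 259 and 343 CPM in control and to 256, 138 and 194 CPM in Lhx6-/- libraries. All 3 Lhx6-/- sums lay below the lowest control, replicate 1 only narrowly. Of the 10 genes, 2 did not overlap between genotypes (20%, beside 15.5% of all tested genes), both lower in Lhx6-/- libraries. S100a9, a neutrophil gene that also other myeloid cells express, was the 1 of 10 called by adjusted p, beside 0.403% of all tested genes. It read 67.4, 72.0 and 80.9 CPM in control and 47.2, 31.2 and 37.1 CPM in Lhx6-/- libraries (log2 fold change -0.93, adjusted p = 0.0312, edgeR). By the rule of fold and p, 2 of 10 were called, both lower, beside 3.28%. Ngp, the most abundant, had a log2 fold change of -0.55 (adjusted p = 0.713, edgeR). The defining marker Ly6g was at 0.37 CPM in control and 0.26 CPM in Lhx6-/- libraries on average. Neutrophils also make Mmp9, and their part in the Mmp9 values was not tested.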

How the data were processed

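Per the labels, 3 control and 3 Lhx6-/- libraries were read single-end over 75 cycles; the submitters' processing notes name STAR 2.6.1d, Partek and mm10. The authors deposited estimated counts per gene, without normalization; the counter, its strand setting and the annotation are not given in the sources used here. A second table of the authors' own comparison (ratios, folds, p-values and false discovery rates) was used only for gene names and positions.

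Estimated counts were rounded and tested with edgeR 4.0.16 in R 4.3.3 (TMM, robust quasi-likelihood fit, filterByExpr, genotype alone, two-sided, Benjamini-Hochberg adjustment over 20114 genes), on code tested on simulated data. A standard error is the size of the log2 fold change over the root of its F statistic. Positions are 1-based on mm10; exon lengths are from GENCODE vM21. Alternatives were other scalings and filters, DESeq2 1.42.0, limma 3.58.1 with a prior count of 2, a replicate block, epithelial and Y-linked covariates, and leaving out each library.

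Members and lists were chosen with earlier results of these data known. Beside the 10 genes, the text names Lhx6, in each pathway list the 3 genes with the smallest p (or any called), in each marker list the 2 most abundant, and the 5 genes most alike in pattern to the summed products and to Tnfrsf11b (those for Tnfsf11 are not reported here). Il34, Pthlh, Nfatc1, Tcirg1, Atp6v1g1, Atp6v1c1, Atp6ap1, Clcn7, Itgb3, Mmp14, Calcr, C1qb, Cd163 and Ly6g, and the genes in the processing limits, were named after their values were seen. Further marker lists for osteoblasts, odontoblasts, ameloblasts and dental follicle had 0 of 12, 0 of 7, 1 of 7 (Amtn) and 0 of 9 genes called at an adjusted p under 0.05, beside 0.403% of all tested genes. Python 3.11.15 with matplotlib 3.10.9 drew the figures.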

Additional observations from a re-analysis of the deposited data

How the results depend on the processing

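All 10 genes stayed uncalled by adjusted p and by the fold and p rule in all 15 alternatives run, and Tnfsf11, Acp5, Ctsk, Mmp9, Oscar and Dcstamp kept their direction in each. With the Y-linked level as a covariate the log2 fold change became -0.086 for Tnfrsf11a, 0.107 for Tnfrsf11b and 0.159 for Csf1, and with the epithelial level it became -0.038 for Csf1r. Leaving out 1 library at a time gave -0.114 to 0.08 for Tnfrsf11b, -0.133 to 0.024 for Csf1 and -0.017 to 0.086 for Csf1r; the cause of these reversals was not tested. Over all tested genes the 81 calls by adjusted p became 315 with DESeq2, 134 with the replicate block, 16 with the epithelial and 233 with the Y-linked covariate, and 12 to 127 without 1 library (127 without control replicate 1, 12 without control replicate 3, 31 and 20 without Lhx6-/- replicates 1 and 2). The 660 calls by fold and p became 1174 with the Y-linked covariate. In the list of other stromal signals, the 0 calls by adjusted p became 1 with total-count scaling and 1 with DESeq2 (Cxcl12 in both), and the 0 by fold and p became 1 with limma-trend (Osm), 1 with the Y-linked covariate (Il34) and 0 to 2 without 1 library (Pthlh, or Il34 with Osm). In the resorption list, the 0 calls by adjusted p became 1 (Anxa8) with the Y-linked covariate, and the 0 by fold and p became 1 with the replicate block (Calcr), 1 with the Y-linked covariate (Anxa8) and 0 to 2 without 1 library (Anxa8, Calcr or Adam8). Lhx6 missed an adjusted p of 0.05 with either covariate and without control replicate 3, Lhx6-/- replicate 2 or Lhx6-/- replicate 3 (edgeR, adjusted p = 0.0772 to 0.134), and S100a9 with either covariate and without control replicate 2, control replicate 3 or Lhx6-/- replicate 3 (edgeR, adjusted p = 0.119 to 0.172), with the direction kept. The replicate numbers are those of the sample titles; the count table numbers the Lhx6-/- libraries 2 to 4. The study speaks of 3 pairs of samples, and the sample titles do not say which libraries belong together. Deviations of log2 levels from the group mean were therefore correlated between control and Lhx6-/- libraries. Those with the same number in the titles gave 0.0256, -0.0288 and -0.0314, and all combinations lay within -0.0639 to 0.0951. The numbers were not taken as pairs, and the block changed no call among the 10 genes. The counting error was largest for Tnfsf11, 6.12% at 267 counts in its lowest library.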
